A study of Mus musculus with 18 samples.

Results

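EphB receptors and ephrin-B ligands are a family of 8 genes in the mouse, the receptor genes Ephb1, Ephb2, Ephb3, Ephb4 and Ephb6 and the ligand genes Efnb1, Efnb2 and Efnb3. They were taken by name from an RNA count table of 24015 genes, in which all 8 were present, and all 8 passed the filter on low counts in each comparison. The table covered tdTomato-positive neurons sorted from cortex at postnatal day 5, about 25000 cells for each library, with 4 libraries in each of 3 groups. These were layer 6 neurons with the genotype Tbr1 Layer 6 Null, wild-type (WT) layer 5 neurons and WT layer 6 neurons. Tbr1 encodes a T-box factor that shapes the identity of layer 6 neurons, and the series concerns its dosage after birth and the wiring of that layer. The design text names the mutant a constitutive null, against the genotype label, and the sources used here give neither the driver of tdTomato nor the null allele nor any pooling of animals. The lists of TBR1 binding regions from cortex at postnatal day 2 are in another genome build than the gene positions at hand, and were not used here.

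EphB receptors are receptor tyrosine kinases, and their ephrin-B ligands are themselves transmembrane proteins, so that contact between cells can signal in both directions. Forward signalling runs through the kinase of the receptor, and reverse signalling runs through the phosphorylated tail and the PDZ-binding end of the ligand. In the developing forebrain the family is known for guiding and repelling axons, including commissural axons, and for building and maturing excitatory synapses. Ephb6 encodes a receptor without kinase activity, and Ephb4 and Efnb2 are also known as markers of veins and arteries.

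The promoters of 3 members are shown, because Ephb1 and Ephb2 were the members called in null layer 6 and Efnb1 differed most between layers. Each is the 250 bases before a RefSeq transcript start, 5′ to 3′, with capitals on the core T-box motif AGGTGT.
Ephb1, GRCm38.p6, chr9:102354694-102354943, strand -: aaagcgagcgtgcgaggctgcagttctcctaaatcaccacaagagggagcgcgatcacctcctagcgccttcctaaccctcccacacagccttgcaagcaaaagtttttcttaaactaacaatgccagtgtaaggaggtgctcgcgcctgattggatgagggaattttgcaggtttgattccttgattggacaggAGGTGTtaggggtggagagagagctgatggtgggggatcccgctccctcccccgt
Ephb2, GRCm38.p6, chr4:136836013-136836262, strand -: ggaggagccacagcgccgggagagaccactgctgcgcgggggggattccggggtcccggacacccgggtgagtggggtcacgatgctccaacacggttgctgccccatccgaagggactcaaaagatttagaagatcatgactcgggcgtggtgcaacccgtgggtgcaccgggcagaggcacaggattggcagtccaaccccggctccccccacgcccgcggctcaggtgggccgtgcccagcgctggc
Efnb1, GRCm38.p6, chrX:99135811-99136060, strand +: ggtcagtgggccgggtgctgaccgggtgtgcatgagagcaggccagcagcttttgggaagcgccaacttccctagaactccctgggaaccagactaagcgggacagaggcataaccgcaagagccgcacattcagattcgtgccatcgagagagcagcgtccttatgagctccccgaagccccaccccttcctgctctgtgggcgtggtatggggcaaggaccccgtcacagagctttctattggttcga
Promoters of 7 of the 8 genes were matched, all but Efnb3. The motif AGGTGT, searched on both strands, stood in the window of 1 of these 7, Ephb1, with its first base 55 bases before the start, and in 11.8% of 32851 promoters of the same length. The longer motif AGGTGTGA, which contains AGGTGT, was in 0 of the 7 windows and in 1.12% of all. A match is a run of letters in the window, and binding there was not measured here.

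Null layer 6 libraries held 41091165 to 47540669 counts, those of WT layer 5 held 27465597 to 39703820, and those of WT layer 6 held 32982957 to 54899002. The 8 genes had between 554 and 13029 counts in a library. Levels are CPM, the counts of a gene as a rate of its library's total, scaled over the 12 libraries by the trimmed mean of M values (TMM). They were not compared between genes, since transcript lengths were not at hand. The targeted gene, Tbr1, averaged 95.5 ± 2.40 CPM in null layer 6 libraries and 177 ± 7.05 CPM in those of WT layer 6 (SD, n = 4 each). Counts were closest within library pairs, replicates 1 with 2 and 3 with 4 in layer 6 and 1 with 3 and 2 with 4 in layer 5, with a chi-square per degree of freedom of 8.72 and 10.4 within against 22.2 to 59.4 across pairs in null layer 6, 1.33 and 1.39 against 2.94 to 3.35 in WT layer 5, and 3.21 and 5.05 against 10.6 to 19.2 in WT layer 6. No label ties a library to an animal of its own, and the p-values measure the spread between libraries, which may be technical. Xist, the RNA of the inactive X chromosome, was at 264 to 302 CPM in null layer 6, at 39.0 to 40.6 CPM in WT layer 5, and in WT layer 6 at 0.450 and 0.462 CPM in replicates 2 and 1 against 289 and 292 CPM in replicates 4 and 3. The libraries labelled WT layer 5 went against that label in 4 of 5 layer 5 markers: Fezf2, Bcl11b, Crym and Etv1 were lower there than in WT layer 6, and Pcp4 was higher. All 5 layer 6 markers were lower there as well, at 177 to 188 CPM summed in WT layer 5 and 479 to 531 CPM in WT layer 6. WT layer 5 libraries were sequenced in batches B and C and all layer 6 libraries in batch A, so layer and batch cannot be told apart. In pools of cells, fewer cells of a type and less RNA per cell cannot be told apart either.

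**Figure D1:**
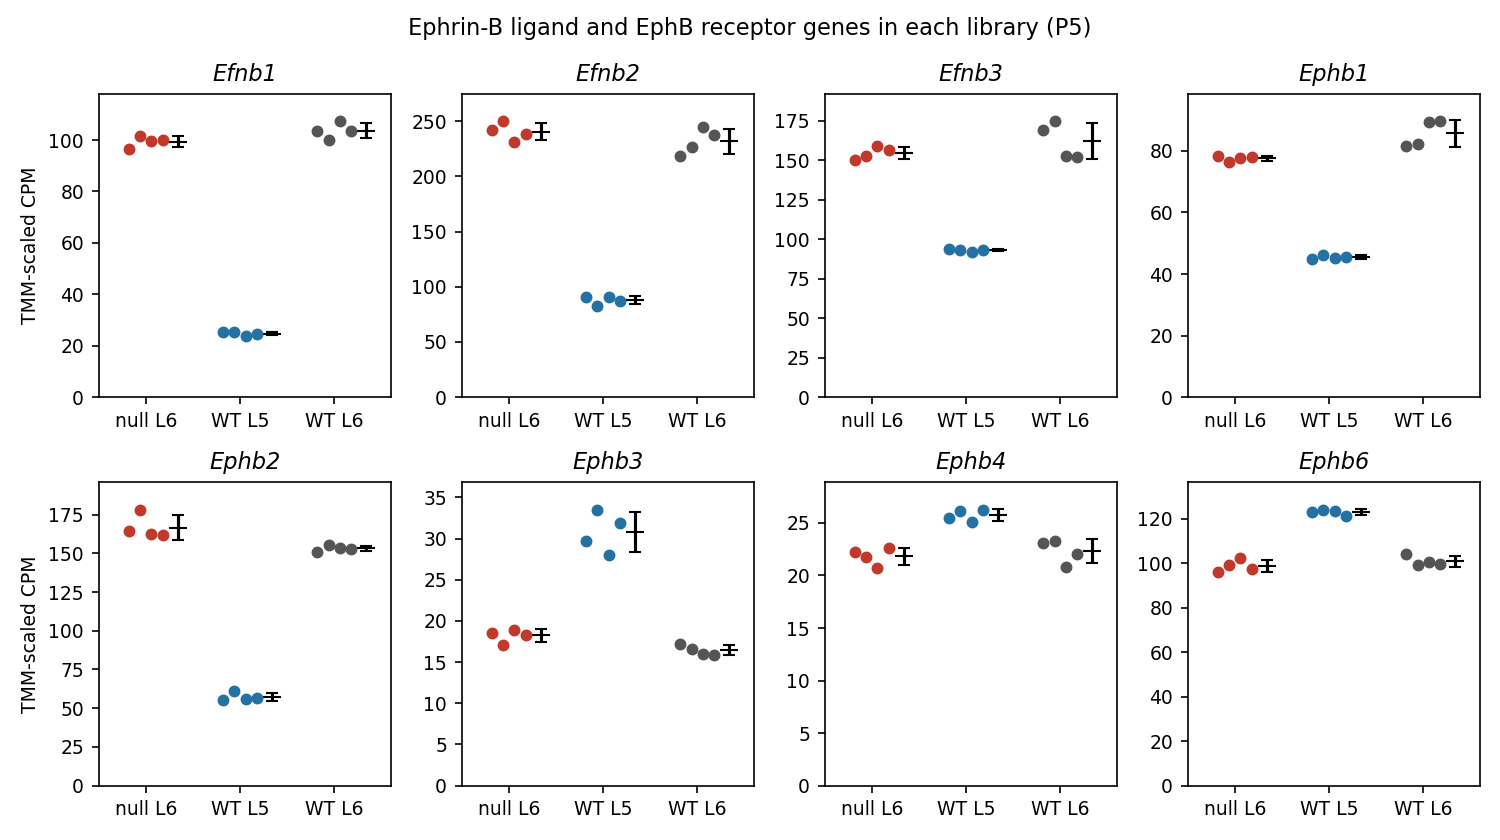
TMM-scaled CPM (vertical axes, from 0) of the 3 ligand and 5 receptor genes in null layer 6 (null L6), WT layer 5 (WT L5) and WT layer 6 (WT L6) libraries. Each point is 1 of 4 libraries and the bars are the mean and SD; null and WT layer 6 points lie close together for every gene, whereas WT layer 5 points lie apart, below them for the ligands, Ephb1 and Ephb2 and above them for Ephb3, Ephb4 and Ephb6.

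The first question was whether the family's RNA differed in layer 6 neurons without normal Tbr1. Of the 8 genes, Ephb2 rose and Ephb1 fell in null against WT layer 6, both by small amounts, and the other 6, with all 3 ligands, were not called. A gene was called at a Benjamini-Hochberg adjusted p under 0.05 in edgeR's quasi-likelihood test over all 14588 genes with enough counts. Calls made up 14.2% of these genes, with 7.31% higher in null and 6.86% lower. The 2 calls among 8 members were not tested against that background. The median log2 fold change was -0.031 over the 8 genes and 0.00034 over all genes tested. Without regard to sign, the median over all genes tested was 0.087.

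Ephb1, a receptor that steers retinal axons at the optic chiasm, stood at 78.3, 76.5, 77.6 and 78.0 CPM in null layer 6, against 81.5, 82.2, 89.4 and 89.7 CPM in WT layer 6. All null libraries were below all WT libraries, and the WT libraries fell into a lower and a higher pair. The log2 fold change was -0.14 ± 0.039 (SE), a level 1.11-fold lower in null, with an adjusted p of 0.0261 (edgeR). Ephb2, a receptor that clusters NMDA receptors at excitatory synapses and guides commissural axons, stood at 164, 178, 162 and 162 CPM in null, against 151, 155, 154 and 153 CPM in WT layer 6. Its null libraries were all higher, with replicate 2 the farthest up, and its log2 fold change was 0.12 ± 0.035, a level 1.09-fold higher, with an adjusted p of 0.0349 (edgeR). In 19.8% of all genes tested the libraries of null and WT layer 6 did not overlap, as they did not for these 2.

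Both calls were lost where libraries of a pair counted as 1. With pairs summed, 2 against 2, the adjusted p was 0.33 for Ephb1 and 0.34 for Ephb2 (edgeR), at log2 fold changes of -0.14 and 0.12. With the pair as a random block it was 0.072 and 0.122 (limma). Leaving out 1 library ended the Ephb1 call for null replicates 2, 3 and 4 and WT replicates 3 and 4, at adjusted p of 0.067, 0.0547, 0.0502, 0.0793 and 0.0817 and log2 fold changes of -0.12 to -0.15. It ended the Ephb2 call for null replicate 2 and for each of WT replicates 1, 2, 3 and 4, at adjusted p of 0.0941, 0.085, 0.0549, 0.0744 and 0.0784 and log2 fold changes of 0.088 to 0.13. The ratio of Ephb2 to Ephb1 counts within a library, which needs no scaling and was chosen after the values were seen, was 2.1, 2.33, 2.09 and 2.07 in null, against 1.85, 1.89, 1.72 and 1.71 in WT layer 6. That these ratios do not overlap follows from the levels of both genes above and adds no support. Other annotated genes overlap Ephb1 and Ephb2, and reads of these were not separated.

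The size of the Ephb1 difference followed the WT pair it was set against. With WT replicates 3 and 4 alone, which have Xist at the level of the null libraries, the log2 fold change was -0.21 with an adjusted p of 0.0045, and with WT replicates 1 and 2 alone it was -0.078 with an adjusted p of 0.233 (edgeR). For Ephb2 these values were 0.12 and 0.12, with adjusted p of 0.105 and 0.106. All null libraries have Xist and WT replicates 1 and 2 nearly lack it, so the fit of all layer 6 libraries was unbalanced for Xist. The part that the difference between these WT pairs has in the Ephb1 result was not tested. With libraries scaled to 15 pan-neuronal genes the log2 fold change was -0.12 for Ephb1 and 0.15 for Ephb2, with adjusted p of 0.0558 and 0.0247. Markers of other cells moved in this comparison too. Astrocyte markers were higher in null for 7 of 15 and lower for 2, with a summed level of 1205 to 1266 CPM in null layer 6 and 993 to 1128 CPM in WT layer 6. Of 13 vascular markers 3 were lower, at 329 to 335 CPM summed in null and 358 to 364 CPM in WT layer 6, and of 14 interneuron markers tested 4 were lower and 1 higher, at 411 to 422 against 437 to 454 CPM. Oligodendrocyte lineage markers were higher for 2 and lower for 5 of 10 tested, at 272 to 287 against 283 to 295 CPM. Of 9 dividing progenitor markers 4 were higher and 0 lower by edgeR, with 6 of 9 at an unadjusted p under 0.05, at 463 to 480.0 CPM summed in null and 432 to 439 CPM in WT layer 6. Of 4 excitatory markers 2 were lower, at 957 to 1012 against 1125 to 1197 CPM, and of 12 microglia markers 0 were called and 2 had an unadjusted p under 0.05, at 138 to 151 against 142 to 148 CPM. Layer markers moved as well. All 5 layer 6 markers, with Tbr1 among them, were lower in null, at 264 to 296 against 479 to 531 CPM summed. Of 5 layer 5 markers 3 were higher and 0 lower, at 552 to 613 against 449 to 465 CPM. The part of these markers in the Ephb1 and Ephb2 results was not tested.

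Ephb3, a receptor that acts with Ephb2 in axon tracts between the hemispheres, had 18.6, 17.1, 18.9 and 18.3 CPM in null, against 17.2, 16.6, 16.01 and 15.9 CPM in WT layer 6, and the groups overlapped. Its log2 fold change of 0.15 ± 0.056 had an unadjusted p of 0.0174 and an adjusted p of 0.0928. Ephb4, the venous receptor, averaged 21.8 ± 0.831 CPM in null and 22.3 ± 1.13 CPM in WT layer 6 (n = 4 each). Its log2 fold change of -0.032 had a 95% interval of -0.149 to 0.085. Ephb6, the receptor without kinase activity, averaged 98.8 ± 2.82 CPM in null and 101 ± 2.33 CPM in WT layer 6, with an interval of -0.102 to 0.042. For neither did the test detect a difference.

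None of the 3 ligand genes was called between null and WT layer 6 by edgeR or by DESeq2, and 0 of 3 had an unadjusted p under 0.05 in either. Efnb1, which lies on the X chromosome and whose loss disturbs craniofacial and brain development, stood at 96.5, 101.5, 99.5 and 100.02 CPM in null, against 103.6, 100.005, 107 and 103.5 CPM in WT layer 6. The groups overlapped, and the log2 fold change of -0.061 had a 95% interval of -0.132 to 0.0097. With the WT pair that has Xist alone it was -0.084, and with the pair that lacks it -0.037.

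Efnb2, the ligand that marks arteries and is also made by neurons, stood at 242, 250.01, 231 and 239 CPM in null, against 219, 226, 244 and 237 CPM in WT layer 6. The groups overlapped, with a log2 fold change of 0.054 and an interval of -0.031 to 0.139. Efnb3, the ligand that stops corticospinal axons at the spinal midline, stood at 149.9, 153, 159 and 156 CPM in null, against 169, 175, 153 and 152 CPM in WT layer 6. WT replicates 1 and 2 were above all null libraries, and WT replicates 3 and 4 lay within the range of the null libraries, the opposite order of the WT pairs from Ephb1. Against WT replicates 1 and 2 alone Efnb3 had a log2 fold change of -0.16 with an adjusted p of 0.0181, and against replicates 3 and 4 alone one of 0.021 with an adjusted p of 0.781 (edgeR).

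**Figure D2:**
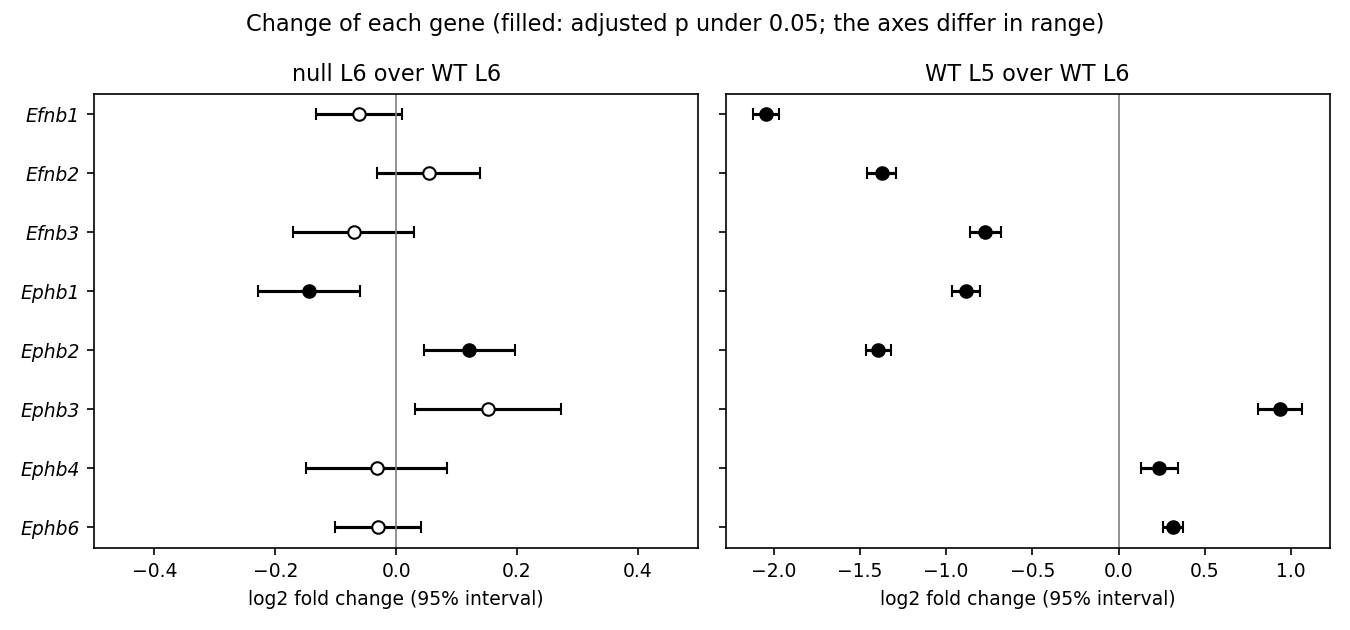
Log2 fold change (horizontal axes, which differ in range) of each gene in null over WT layer 6 (left) and in WT layer 5 over WT layer 6 (right), with 95% intervals from the edgeR fit and filled points for an adjusted p under 0.05. Ephb1 at -0.14 and Ephb2 at 0.12 are the filled points on the left, and all 8 points are filled on the right, from -2.04 for Efnb1 to 0.94 for Ephb3.

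All 8 members differed between the libraries labelled WT layer 5 and those of WT layer 6, as did most genes. Layer and sequencing batch cannot be told apart here. In the libraries labelled WT layer 5, the ligands Efnb1, Efnb2 and Efnb3 and the receptors Ephb1 and Ephb2 were lower than in WT layer 6, and the receptors Ephb3, Ephb4 and Ephb6 were higher. The 8 members were called in a comparison where 85.5% of 14927 genes passed the same threshold, with 42.2% higher in WT layer 5 and 43.4% lower, and where the groups did not overlap in 81.1% of genes. Most genes were called, so that the sizes describe the members better than the calls. The median log2 fold change was -0.828 over the 8 genes and -0.010 over all genes tested. Without regard to sign, the median over all genes tested was 0.602. Ephb4 at 0.24 and Ephb6 at 0.31 thus moved less than the median gene.

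Efnb1 had the widest difference. It stood at 25.2, 25.2, 23.8 and 24.5 CPM in WT layer 5, against 100.005 to 107 CPM of WT layer 6, and was 4.12-fold lower, with a log2 fold change of -2.04 ± 0.035 and an adjusted p of 7.84e-16 (edgeR). Efnb2 stood at 90.3, 82.9, 90.8 and 86.7 CPM in WT layer 5, against 219 to 244 CPM in WT layer 6, a 2.59-fold lower level with a log2 fold change of -1.37 ± 0.039. Efnb3 stood at 93.7, 93.3, 92.2 and 92.9 CPM, against 152 to 175 CPM, a 1.71-fold lower level with a log2 fold change of -0.77 ± 0.043. The ligands thus differed in the order Efnb1, Efnb2, Efnb3, and the 95% intervals of their log2 fold changes, -2.12 to -1.97, -1.46 to -1.29 and -0.864 to -0.680, did not overlap. These intervals take the libraries as independent and are too narrow if libraries of a pair are not. With pairs of libraries summed, the log2 fold changes were -2.06, -1.39 and -0.79, in the same order.

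Among receptors, Ephb2 stood at 55.0, 61.0, 55.9 and 56.8 CPM in WT layer 5, against 151 to 155 CPM in WT layer 6, and was 2.63-fold lower, with a log2 fold change of -1.39 ± 0.034. Ephb1 stood at 44.9, 46.1, 45.3 and 45.7 CPM, against 81.5 to 89.7 CPM, and was 1.85-fold lower, with a log2 fold change of -0.88 ± 0.039. Ephb3 went the other way, at 29.8, 33.5, 28.1 and 31.9 CPM in WT layer 5 against 15.9 to 17.2 CPM in WT layer 6, 1.92-fold higher, with a log2 fold change of 0.94 ± 0.060. The rises of the other receptors were smaller: Ephb6 averaged 123 ± 1.253 CPM in WT layer 5 and 101 ± 2.33 CPM in WT layer 6 (SD, n = 4 each), 1.24-fold higher. Ephb4 averaged 25.7 ± 0.543 CPM in WT layer 5 and 22.3 ± 1.13 CPM in WT layer 6, 1.18-fold higher with an adjusted p of 0.000457 (edgeR). With pairs of libraries summed, Ephb4 had a log2 fold change of 0.21 and an adjusted p of 0.0254 (edgeR). Layer 5 libraries of batch B alone and of batch C alone gave -2.02 and -2.08 for Efnb1, -1.38 and -1.41 for Ephb2 and 0.97 and 0.90 for Ephb3, and all 8 genes were called with either. The closest layer 5 libraries, replicates 1 with 3 and 2 with 4, are split between these batches, so that like values from both add no support.

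Markers of other cell types moved with these differences. Of astrocyte markers 14 of 15 were higher and 1 lower in WT layer 5, with a summed level of 6176 to 6219 CPM in WT layer 5 and 993 to 1128 CPM in WT layer 6. All 13 vascular markers were higher, at 762 to 783 CPM summed in WT layer 5 and 358 to 364 CPM in WT layer 6, as were all 12 oligodendrocyte lineage markers tested of 13, at 1231 to 1242 against 283 to 295 CPM, and all 12 microglia markers, at 418 to 428 against 142 to 148 CPM. Interneuron markers were lower in 10 of 15 and higher in 4, at 262 to 272 against 437 to 454 CPM. The 15 pan-neuronal genes went both ways, with 9 lower, 5 higher and 1 not called, and summed to 6703 to 6725 CPM in WT layer 5 and 8810 to 9133 CPM in WT layer 6. The largest of them moved apart, Tubb3 at 1740 against 3335 CPM and Map2 at 2092 against 1652 CPM. Neurod2 and Neurod6, transcription factors of excitatory neurons, were 4.72-fold and 5.38-fold lower in WT layer 5. Of the 4 excitatory markers 3 were lower and 1, the vesicular glutamate transporter Slc17a7, was higher, at 115 CPM in WT layer 5 and 77.0 CPM in WT layer 6. Of the 106 marker genes, Pvalb was the one with no read in WT layer 6 and Mobp the one with no read in null layer 6. The part of other cells in the Eph and ephrin differences was not tested. With libraries scaled to the summed pan-neuronal genes, which moves the median over all genes to a log2 fold change of 0.378, the members kept their directions: Efnb1 was at -1.65, Ephb2 at -1.004, Efnb2 at -0.98, Ephb1 at -0.50, Efnb3 at -0.39, Ephb4 at 0.62, Ephb6 at 0.70 and Ephb3 at 1.33.

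The make-up of the family's reads needs no scaling between libraries. It rests on the same counts as the levels, and the share of a gene also moves with the other members. Of EphB receptor counts, the share of Ephb2 was 43.5% ± 1.30 in null layer 6, against 20.3% ± 0.508 in WT layer 5, and 40.5% ± 0.535 in WT layer 6 (SD, n = 4 each). Ephb6 took 25.8% ± 0.731, 43.6% ± 0.878 and 26.7% ± 0.677 in the same order of groups, and Ephb3 took 4.77% ± 0.273, 10.9% ± 0.641 and 4.34% ± 0.182. The share of Ephb1 was 19.5% to 20.6% in null and 21.6% to 23.6% in WT layer 6, ranges that did not overlap, with 15.9% to 16.3% in WT layer 5. The gap between null and WT layer 6 follows from the levels of Ephb1 and Ephb2 given above and adds no support. Among ligand counts, the Efnb1 share was 20.1% ± 0.254 in null layer 6, against 12.0% ± 0.400 in WT layer 5, and 20.8% ± 0.588 in WT layer 6, and Efnb3 took 31.2% ± 0.947, 45.3% ± 0.792 and 32.6% ± 2.39. The share of Efnb3 was thus higher in WT layer 5 than in WT layer 6, although its level was lower. For each 100 EphB counts a null layer 6 library had 128 to 131 ephrin-B counts, a WT layer 5 library 69.2 to 75.1, and a WT layer 6 library 129.5 to 133. A share of counts depends on transcript length as well as on abundance, so these shares serve to compare libraries, not genes.

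**Figure D3:**
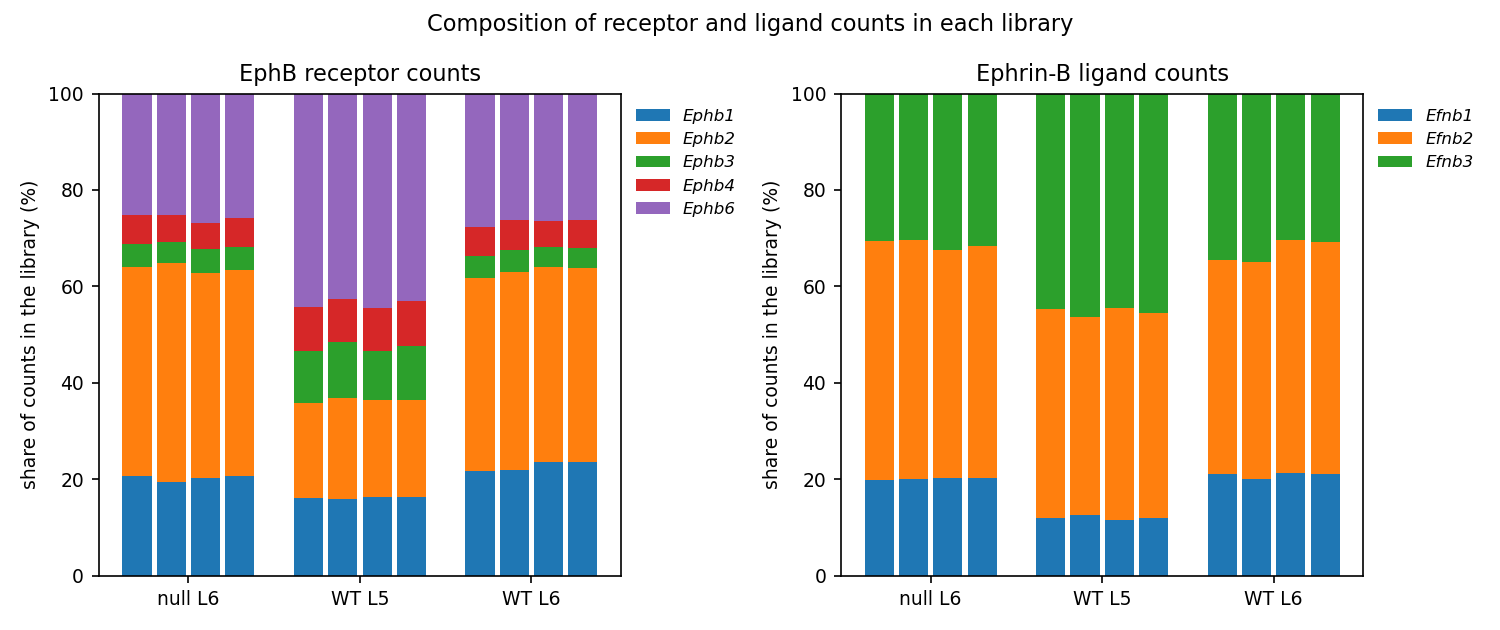
Share of each gene (vertical axes, % of the counts of 5 EphB receptor genes, left, or 3 ephrin-B ligand genes, right) in each of 12 libraries, 4 bars for each of null layer 6, WT layer 5 and WT layer 6. The Ephb2 share runs from 42.5% to 45.4% among null layer 6 bars, from 19.8% to 21.0% among WT layer 5 bars, and from 40.0% to 41.2% among WT layer 6 bars.

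Null layer 6 was also set against WT layer 5, a comparison that shares its libraries with the other 2 and in which 84.3% of 15013 genes tested were called, 42.4% as higher in null and 41.8% as lower, and the groups did not overlap in 80.2%. The 8 members were called, 5 higher and 3 lower in null, and none of them overlapped, with Efnb1 at a log2 fold change of 1.98, Ephb2 at 1.51, Efnb2 at 1.42, Ephb1 at 0.73, Efnb3 at 0.70, Ephb4 at -0.27, Ephb6 at -0.35 and Ephb3 at -0.79. In the order of levels, each gene in null layer 6 thus stood next to WT layer 6, with WT layer 5 at one end: lowest for the ligands, Ephb1 and Ephb2, and highest for Ephb3, Ephb4 and Ephb6. The layer 6 neighbours did not differ beyond the test's threshold for 6 of the 8 genes. Over all genes tested, the median log2 fold change without regard to sign was 0.087 between null and WT layer 6. It was 0.602 between WT layer 5 and WT layer 6, and 0.599 between null layer 6 and WT layer 5. The share of all genes with the same order of groups was not counted, so the order is not taken as particular to the family. Both layer 6 groups were of batch A, and WT layer 5 of batches B and C.

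The genes whose levels over the 12 libraries were most like a member were taken among 11071 genes with a mean of at least 5 CPM, by Pearson r of log2 CPM. These r values mostly reflect the split of WT layer 5 from layer 6, which all points share, and carry no p. The nearest were Mycn (r = 0.9996) and Chtf8 (0.9995) for Efnb1, and Hsdl1 (0.9979) and Kctd15 (0.9964) for Efnb3. For the receptors they were Elf2 and Nfil3 (0.997 each) for Ephb1, Slc7a6 (0.9987) and Scn3b (0.9985) for Ephb2, Igsf11 (0.9938) and Pde5a (0.9936) for Ephb3, Afap1l1 (0.9735) and Plcd1 (0.9685) for Ephb4, and Pik3r2 (0.9946) and Mmp15 (0.9932) for Ephb6.

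Of 36 partner genes of the pathway, a list of signalling, cleavage and cross-binding proteins, 35 were tested between null and WT layer 6, where 8 rose, 1 fell and 26 were not called, with a median log2 fold change of 0.022. Over all genes tested 7.31% rose and 6.86% fell, and the partner counts were not tested against these shares. Partner genes were not refitted with pairs of libraries counted as 1, which ended both member calls, so their calls and SEs take the libraries as independent. Among 11 genes of ephrin-B reverse signalling, 3 rose and 1 fell. Rgs3, whose product binds the ephrin-B tail and dampens G-protein signalling, averaged 31.6 ± 0.630 CPM in null libraries against 23.6 ± 0.749 CPM in WT layer 6, a log2 fold change of 0.42 ± 0.045 with an adjusted p of 2.96e-05. Pak1, a kinase that remodels actin, rose by 0.30 ± 0.031 on the log2 scale, and Grip2, a PDZ scaffold of ephrin-B and AMPA receptors, fell by 0.26 ± 0.048 on it.

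Among 16 genes of EphB forward signalling, 3 rose and 13 were not called. Vav3, an exchange factor for small GTPases used in Eph receptor endocytosis and repulsion, averaged 36.9 ± 1.31 CPM in null libraries against 19.9 ± 0.476 CPM in WT layer 6, 1.85-fold higher, with an adjusted p of 5.5e-08 (edgeR). Kalrn, the exchange factor kalirin that acts below EphB2 in spines, rose by 0.12 ± 0.033 and Abl2, a cytoplasmic tyrosine kinase, by 0.27 ± 0.072 on the log2 scale. Abl2 stood at 126, 125, 100.3 and 102 CPM in null layer 6, against 90.2, 88.8, 96.4 and 99.8 CPM in WT layer 6, so that null replicates 3 and 4 lay close to WT replicates 3 and 4. Of 6 cleavage genes tested, Ncstn, a γ-secretase subunit, rose by 0.13 ± 0.036. Among genes that bind across the classes, Efna5, an ephrin-A that can bind EphB2, averaged 13.8 ± 1.80 CPM in null libraries against 7.43 ± 0.819 CPM in WT layer 6, a log2 fold change of 0.89 ± 0.10. Epha4, an EphA receptor that binds ephrin-B ligands, averaged 365 ± 11.5 CPM in null and 382 ± 12.5 CPM in WT layer 6 and was not called.

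In WT layer 5 against WT layer 6, 14 partner genes rose, 17 fell and 5 were not called, with a median log2 fold change of -0.048. The share called over all genes was 85.5%, so that counts of this size are near the background. Of the reverse signalling genes, Dock1, a Rac exchange factor in ephrin-B3 signalling, was 3.69-fold higher, Git1, a spine scaffold, 1.33-fold higher, and Nck2, the SH2-SH3 adaptor that binds the phosphorylated ephrin-B tail, 1.96-fold lower. Of the forward signalling genes, Rasa1, the Ras GTPase-activating protein that binds activated EphB receptors, was 2.08-fold lower and Ptk2, the focal adhesion kinase, 1.57-fold lower, whereas Kalrn was 1.64-fold higher. Among cleavage genes, Ncstn was 1.94-fold lower. Rhbdl2, a rhomboid protease, was at 1.68 ± 0.231 CPM in WT layer 5 and 0.158 ± 0.037 CPM in WT layer 6, with 43 to 74 counts in WT layer 5 libraries and 6 to 9 in those of WT layer 6. It passed the filter on low counts only through WT layer 5, so its call, which is among the 14, had to follow and its fold is not ranked. Epha4 was 1.84-fold lower in WT layer 5, at 203 ± 4.49 against 382 ± 12.5 CPM, and Efna5 1.60-fold higher, at 11.7 ± 1.13 against 7.43 ± 0.819 CPM. Between null layer 6 and WT layer 5, 18 partner genes were higher in null, 14 lower and 4 not called, beside 84.3% called over all genes, which is again near the background. Rhbdl2, at 0.173 ± 0.036 CPM in null, again passed the filter only through WT layer 5, so its call among the 14 lower had to follow.

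**Figure D4:**
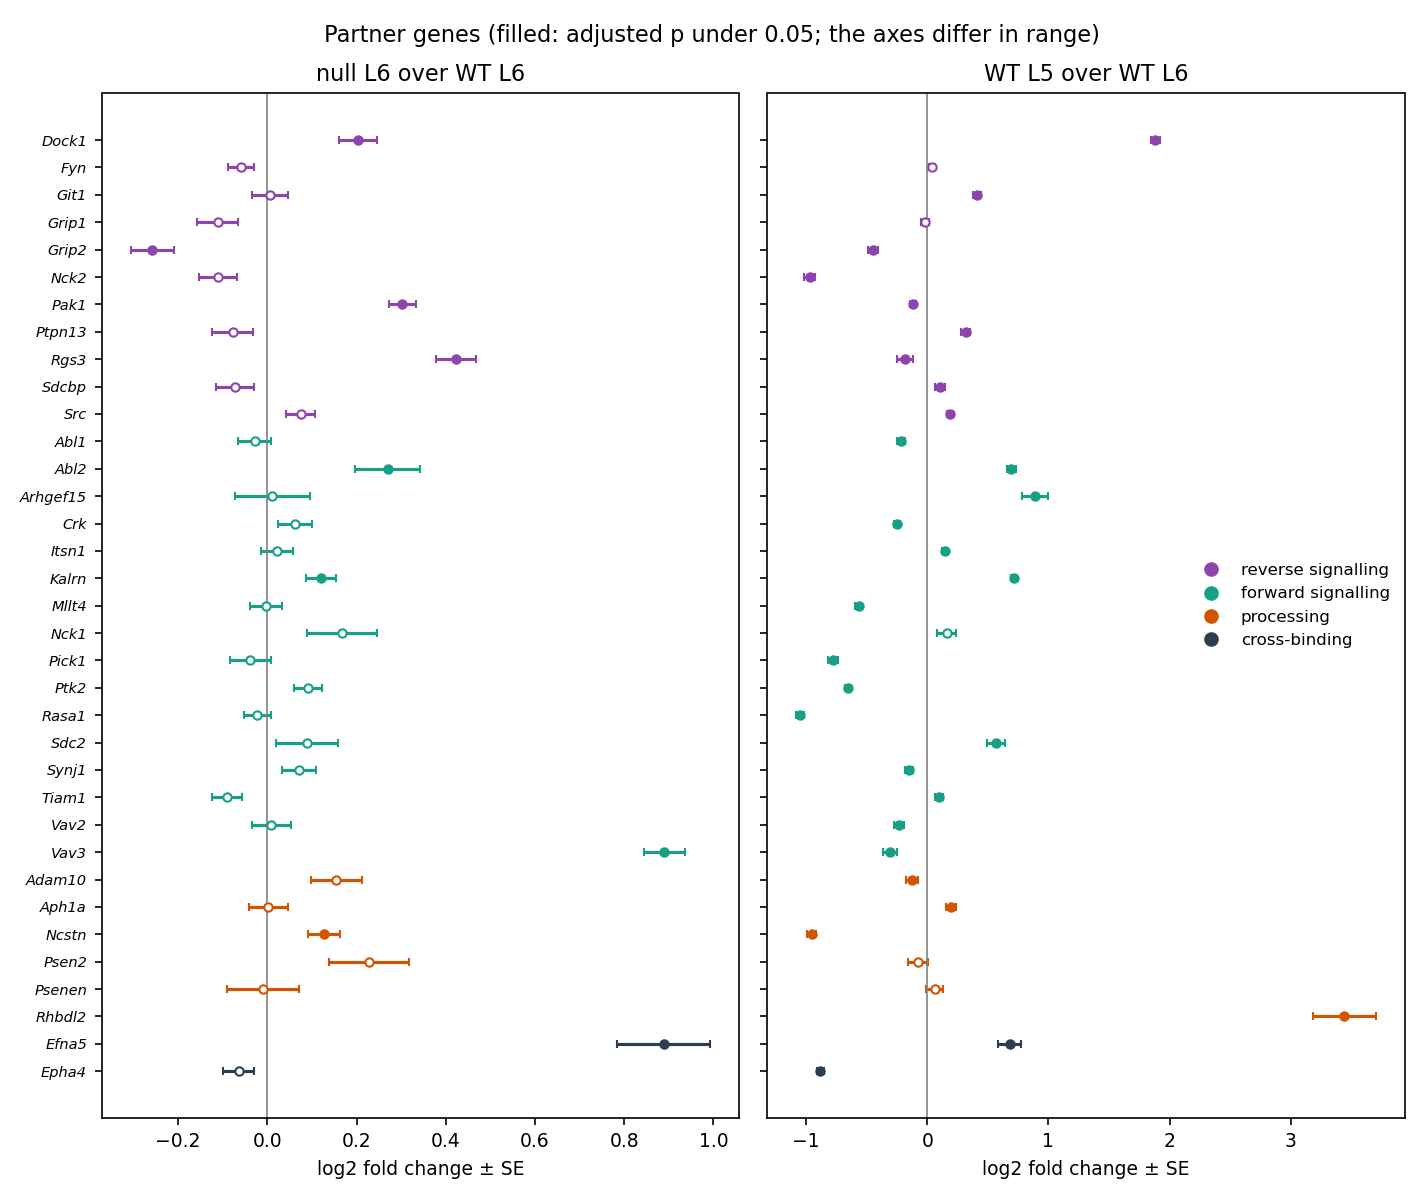
Log2 fold change with SE (horizontal axes, which differ in range) of the partner genes reported here, coloured by role, in null over WT layer 6 (left) and WT layer 5 over WT layer 6 (right), with filled points for an adjusted p under 0.05. Vav3 and Efna5, each at 0.89, lie farthest right in the left panel, and Dock1 is at 1.88 in the right panel, where Rhbdl2 at 3.44 passed the filter only through WT layer 5.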

How the data were processed

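RNA was measured in 12 libraries of sorted neurons. The authors deposited raw counts, whole numbers of reads for each gene. The submitters' processing notes name STAR 2.5.2b, HTSeq and the build mm9; no source used here gives the annotation or strand setting. RefSeq places other genes over Ephb1 (5) and Ephb2 (2) and over no other member, and their reads were not separated. All 24015 genes entered library totals, and 0 columns were left unmatched. The authors' deposited normalized table holds whole-number scores with equal medians, made in a way the sources do not state; it served only for directions, as log2 of the score plus 1.

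The test was edgeR's quasi-likelihood F-test (edgeR 4.0.16, R 4.3.3) with TMM and filterByExpr on the libraries of each pair of groups, with p-values adjusted over all genes tested, and tested on simulated data first. Simulated libraries were independent of each other, so the simulation cannot show how the test behaves where libraries come in like pairs. DESeq2 1.42.0 and limma 3.58.1 served alternatives. An SE is the log2 fold change over the root of F. Displayed CPM use TMM over 12 libraries. Promoters are RefSeq's, GRCm38.p6. Alternatives were other scalings, no filter, 1 fit of 12 libraries, pairs or replicate numbers as blocks, and libraries left out. The members and lists were chosen with earlier results of these data known. Named were all 8 members, and per partner list up to 3 called genes with the smallest adjusted p, with Epha4 and Efna5 always and the 2 most similar genes of each member; some items are not reported here. Replicate numbers did not match alike libraries: deviations of same-numbered null and WT layer 6 libraries correlated at -0.15 to -0.0814. Those of null replicates 1 and 2 with WT replicates 3 and 4, and of null 3 and 4 with WT 1 and 2, correlated at 0.0572 to 0.14. The deviations are from the mean of each group and cancel within it, so that correlations of one sign bring ones of the other. Whether these libraries share anything was not tested.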

Additional observations from a re-analysis of the deposited data

How the results depend on the processing

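For WT layer 5 against WT layer 6, and for null layer 6 against WT layer 5, all 8 members were called in the same direction under each of 18 alternatives. Between null and WT layer 6 the number of members called, 2 in the edgeR fit, was 0 with the replicate block, 0 with pairs of libraries summed and 0 with limma and the pair as a random block, where 3, 1 and 2 members had an unadjusted p under 0.05. It was 1 with scaling to pan-neuronal genes (Ephb2), 1 with WT replicates 3 and 4 alone (Ephb1) and 1 with WT replicates 1 and 2 alone (Efnb3), and 0 to 2 with each of the 8 libraries left out in turn. DESeq2, median-ratio size factors, no filter and all 12 libraries in 1 fit each gave 2. The genes called in all were 479 with pairs summed and 1277 with limma and the pair block, against 2068, and 1632 to 1838 with 1 library left out. The replicate block, whose numbers did not match alike libraries, gave 1526 genes. In the alternatives with WT replicates 3 and 4 alone, chosen after seeing the data like that with replicates 1 and 2, members that were not called changed sign: Ephb4 at a log2 fold change of 0.025, Efnb2 at -0.00095 and Efnb3 at 0.021; the cause was not tested. The authors' deposited normalized table gave the sign of the edgeR fit for 8 of 8 members in each comparison. The planned counts of TBR1 regions near the members were not run, for want of gene positions in the build of the peaks. The lowest count of a member in a library was 554, so counting error bears most on the members with the fewest reads.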
